A study of Mus musculus with 8 samples.

Results

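Voltage-gated sodium and calcium channels were examined in the brains of mice given methanol or normal saline, through every array probe whose annotated gene symbol names an Scn channel gene or a Cacna, Cacnb or Cacng gene. These were 45 probes for 28 genes out of 25697 probes for 16593 genes on the Illumina MouseRef-8 BeadChip, on which labelled RNA is captured by oligonucleotides on beads. The sodium channel family had 9 probes for 8 genes and the calcium channel family had 36 probes for 20 genes. Per the labels, 4 mice received methanol at 120 mg/kg in a volume of 350 µl, 4 received 350 µl of normal saline, and brains were taken after 2 h. The labels call the tissue male brain, do not name the route, and do not say whether each array held RNA of 1 mouse, so the spread behind each p-value is one between arrays, which may be technical. The methods give the mice as BALB/c, an inbred strain, and describe inhalation of vapor for a shorter time in larger groups, with water as the control. The groups are called methanol and control. Xist, the RNA of the inactive X chromosome, was detected on 8 of 8 arrays by both of its probes (log2 intensity 8.66 to 8.99 and 6.96 to 7.17), while the Y-linked genes Kdm5d and Eif2s3y were detected on 0 arrays and Uty on 4, so the male label was not borne out by these genes.

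A sodium channel is built around 1 large pore-forming protein, encoded by an Scn gene, that opens on depolarization and carries the upstroke of the action potential. Small beta subunits with 1 membrane span modify its gating and anchor it. Calcium channels have a pore-forming protein from a Cacna1 gene, which turns depolarization into calcium entry for transmitter release, firing or gene regulation, joined by an intracellular beta subunit and an extracellular alpha2delta subunit, while most of the brain Cacng proteins are partners of AMPA-type glutamate receptors.

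Values are log2 intensities after background correction and quantile normalization, and a probe was compared where its detection p-value was under 0.05 on at least 4 of the 8 arrays. The lowest detected signal lay between 5.37 and 5.55 on the arrays, and 23 to 27 of the 45 channel probes were detected per array. A level includes how well each probe binds, so levels of different probes were not set against each other. The tissue is a mixture of cells, so that fewer cells of a type and less RNA per cell cannot be told apart. Of markers of brain cells, 6 of 8 neuron markers were tested and 0 passed limma's test at an adjusted p under 0.05, also 0 at an unadjusted p under 0.05. Over all compared probes these shares were 5.6% and 20.7%, so that 0 of 6 does not show an unchanged neuron content. The mean level of these markers was 12.18 to 12.24 on the methanol and 12.14 to 12.27 on the control arrays. Snap25 and Nefl, also on the list, were detected on 1 array each.

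Of the 45 channel probes, 25 for 19 genes were compared, 6 sodium probes for 5 genes and 19 calcium probes for 14 genes. This was 55.6% of the channel probes, while 46.5% of all probes on the array were compared. For 9 genes no probe entered the comparison. Among them Scn10a and Scn11a, the pores of sensory neurons of the dorsal root ganglion, Scn7a, an atypical sodium-sensing pore, Cacna1f, the retinal L-type pore, Cacng1, the gamma subunit of muscle, and Cacng6 were detected on 0 arrays. Cacng2, known as stargazin, was also detected on 0 arrays although it is known from cerebellum and cortex. Cacna1c, the main L-type pore of heart and neurons, had 4 probes, of which 3 were detected on 0 arrays and 1 on 3 arrays, and Cacng8 was detected on 3 arrays. Scn2a, Scn3a, Cacna1e, Cacna1i, Cacna2d2 and Cacnb3 were not analysed here. Of the 45 probes, 20 were detected on all 8 arrays (44.4%, against 38.6% of all probes on the array) and 17 on 0 arrays. Detection on 0 arrays can reflect the probe and does not show that a gene was silent. Cacna1b, Cacna1d, Cacna1g, Cacnb1, Cacnb2 and Cacnb4 each had a probe detected on 0 arrays beside another probe of the same gene that was compared.

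**Figure D1:**
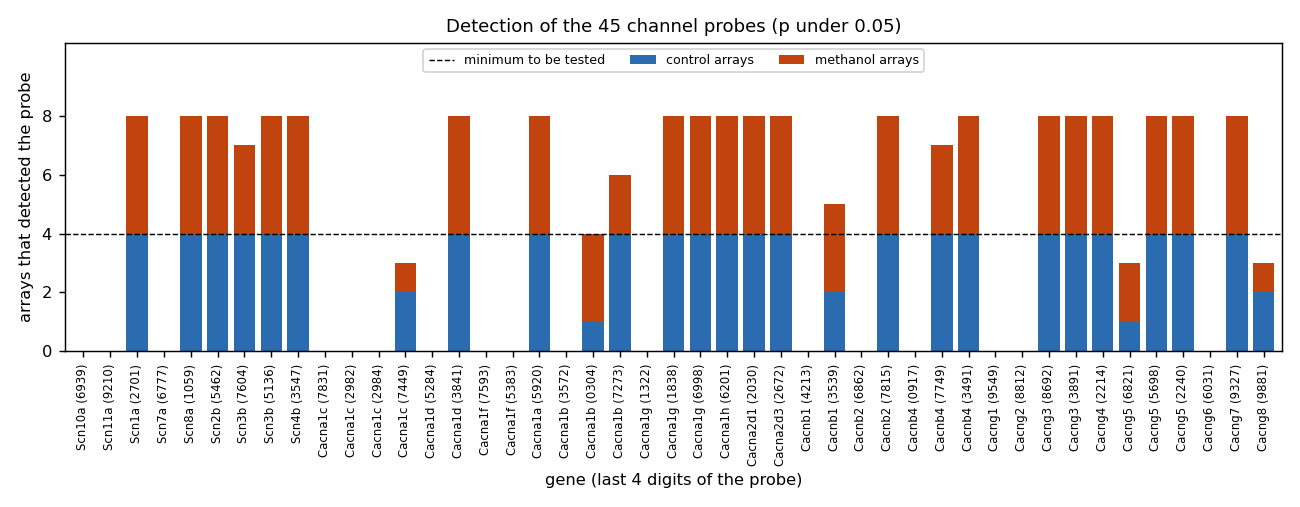
Number of arrays (0 to 8) that detected each of the 45 channel probes at a detection p under 0.05, with methanol and control arrays stacked and the gene named below each bar. Most probes sit at 8 arrays or at 0, and 25 probes reach the 4 arrays needed for the comparison.

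Most channel genes did not pass the test between methanol and control. After methanol, 1 of the 25 compared channel probes was higher (4%, where 3.12% of all 11938 compared probes were higher) and 2 were lower (8%, against 2.49% of all), while 22 did not pass limma's test. Either way 3 of 25 passed (12%, against 5.6% of all). The higher probe was that of Scn1a, a pore, and both lower probes were those of Scn3b, a beta subunit. Of the 19 calcium channel probes 0 passed, with 3 at an unadjusted p under 0.05. Of all 25 channel probes 6 had an unadjusted p under 0.05 (20.7% of all compared probes did). The groups did not overlap for 4 channel probes (16%, against 12.4% of all), 2 higher and 2 lower after methanol (6.6% and 5.77% of all). The median log2 change over the channel probes was 0.00, as it was over all compared probes, with 13 changes above 0 and 12 below. The median size of the change was 0.17 in the channel probes and 0.13 over all probes, and the median SD within a group was 0.26 and 0.17. The median 95% interval of a channel probe reached 0.34 to each side of its change, so that changes smaller than this were mostly not detectable with 4 arrays a group. Since calls used adjusted p-values, larger changes could miss the threshold too, as 0.79 for Scn4b and -0.43 for a Cacnb4 probe did.

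**Figure D2:**
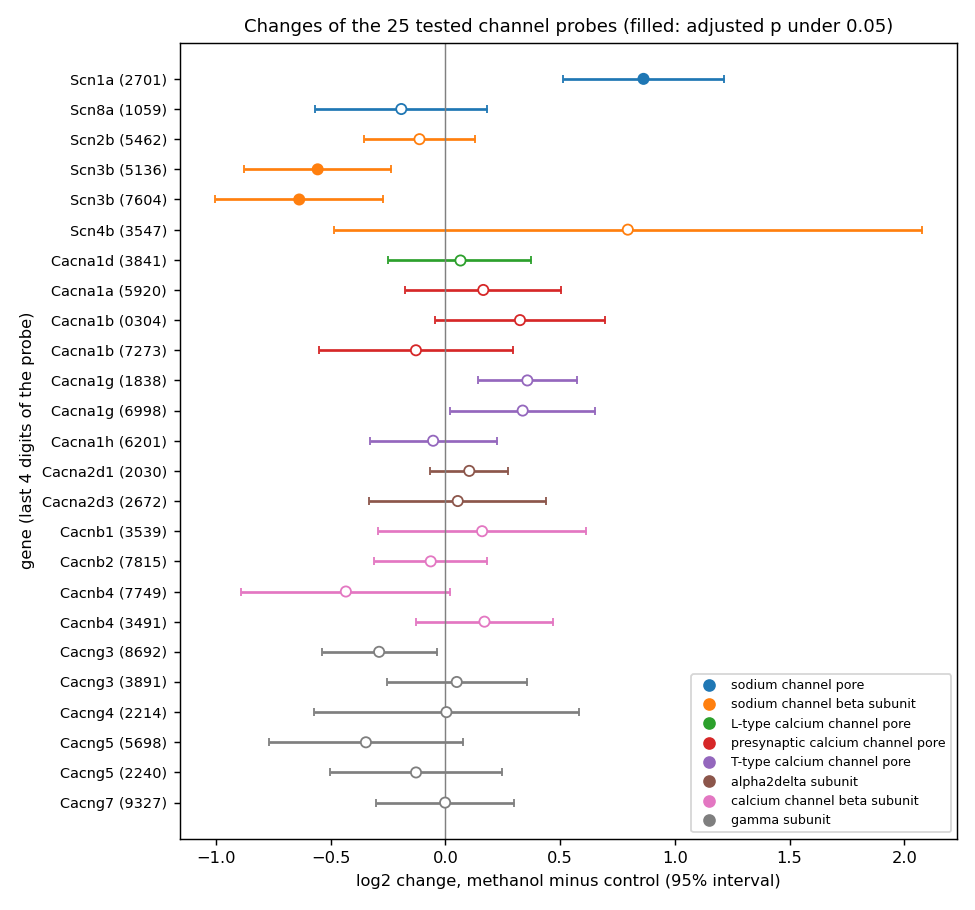
Log2 change (methanol minus control) with its 95% interval from limma for each of the 25 compared channel probes, grouped by the role of the gene. Filled points passed the test (Scn1a at 0.86 and the 2 Scn3b probes at -0.56 and -0.64), and the interval of Scn4b is the widest.

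Scn1a, the sodium channel pore best known from fast-spiking inhibitory neurons and from the epilepsy caused by its loss, was higher after methanol. Its log2 intensity was 9.74, 9.56, 9.59 and 9.16 on methanol arrays 1 to 4 and 9.05, 8.89, 8.45 and 8.21 on control arrays 1 to 4. All methanol arrays stood above all control arrays, and the gap between the lowest methanol and the highest control array was 0.12. The means were 9.51 ± 0.24 and 8.65 ± 0.39 (SD, n = 4 arrays each). The change was 0.86 on the log2 scale (SE 0.16, 95% interval 0.51 to 1.22, limma adjusted p = 0.00649), which is 1.82-fold (1.43 to 2.32). The exact two-sided permutation test over the 8 arrays gave p = 0.0286, the smallest it can give. In the un-normalized intensities the groups overlapped, with 600.1 on methanol array 4 and 644.9 on control array 1. Without background correction the change was 0.67, also past the test. The gene lies on chromosome 2 at 66270781 to 66440837 (GRCm38.p6), and the 250 bases before its annotated start are shown because it was the only member higher after methanol, with the letters CCAAT in capitals, which begin at -63 from the start.
Scn1a upstream region, chr2:66440838-66441087, minus strand, RefSeq on GRCm38.p6: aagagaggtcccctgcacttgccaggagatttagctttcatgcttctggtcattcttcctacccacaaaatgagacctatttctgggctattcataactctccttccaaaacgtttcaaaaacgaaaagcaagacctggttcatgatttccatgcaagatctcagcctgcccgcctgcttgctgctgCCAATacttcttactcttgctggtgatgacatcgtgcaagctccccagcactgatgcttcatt

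The only other compared pore of the sodium channels was Scn8a, the pore of axon initial segments and nodes of Ranvier. Its level was 6.57, 6.36, 6.94 and 5.92 on the methanol arrays and 6.64, 6.59, 6.67 and 6.65 on the control arrays. The control arrays lay within 0.08 of each other and the methanol arrays spread over 1.02, above and below them. The SD of the control arrays was at percentile 1.96 of all compared probes and that of the methanol arrays at percentile 97.0. The change of -0.19 did not pass (SE 0.175, 95% interval -0.57 to 0.18, limma adjusted p = 0.589), and the difference between the SDs was not tested.

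**Figure D3:**
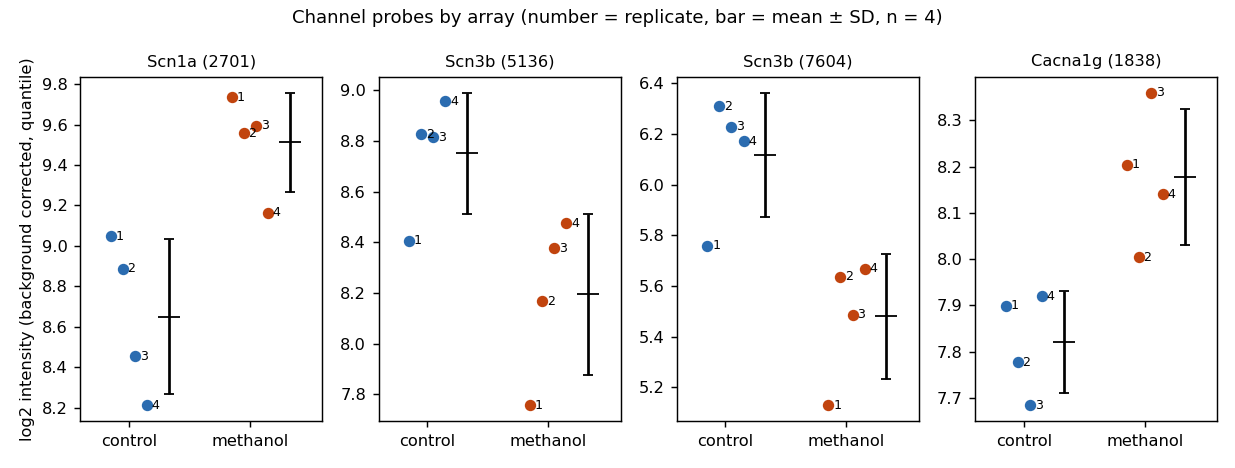
Log2 intensity of the Scn1a probe, the 2 Scn3b probes and a Cacna1g probe (last 4 digits in brackets) on the 4 control and 4 methanol arrays, where numbers are replicates and bars are the mean and SD. Every methanol array is above every control array for Scn1a and Cacna1g and below for the dim Scn3b probe, and each panel has its own scale that does not start at 0.

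Scn3b, a beta subunit that binds the pore without a covalent bond, was lower after methanol on both of its probes. On the brighter probe, ILMN_1215136, the methanol arrays had 7.76, 8.17, 8.38 and 8.47 and the control arrays 8.41, 8.83, 8.81 and 8.96. Here the groups overlapped by 1 pair of arrays, since methanol array 4 stood above control array 1. The means were 8.19 ± 0.32 and 8.75 ± 0.24, and Scn3b fell by 0.56 on the log2 scale (SE 0.15, 95% interval -0.88 to -0.24, limma adjusted p = 0.0436), which is 1.47-fold lower. The exact permutation test gave p = 0.0571. On the probe ILMN_1227604 the methanol arrays had 5.13, 5.64, 5.49 and 5.67 and the control arrays 5.76, 6.31, 6.23 and 6.17. These groups did not overlap, with a gap of 0.09. The change was -0.64 (SE 0.17, 95% interval -1.004 to -0.27, limma adjusted p = 0.0428, exact permutation p = 0.0286), 1.56-fold lower. This probe was dim, with detection on 3 of 4 methanol and 4 of 4 control arrays, and its change was -0.19 in the deposited table that was normalized with its background left in, where it passed the test as well.

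The changes of the Scn3b probes did not differ beyond the spread of the arrays (difference 0.08, exact permutation p = 0.429, adjusted over 6 such pairs of probes p = 0.549). Leaving out 1 array ended both calls in 6 of 8 cases each, with changes of -0.62 to -0.41 on the brighter probe and -0.69 to -0.51 on the dim one. These cases were methanol array 1, 2 or 3 and control array 2, 3 or 4 for both probes. Without a variance trend and with robust moderation the call of the brighter probe also ended. Within each group Scn1a and Scn3b ran in opposite order at the ends. Array 1 of either group had the highest Scn1a and the lowest Scn3b level of its group on both probes, and array 4 had the lowest Scn1a level and the highest level on ILMN_1215136. The gene lies on chromosome 9 at 40269216 to 40291618.

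Scn4b and Scn2b, beta subunits joined to the pore by a disulfide bond, lie 8553 bases apart on chromosome 9, and neither passed the test. Scn4b, known for its high level in medium spiny neurons of the striatum and for resurgent sodium current, had the widest spread of the compared channel probes. Its level was 10.61, 11.28, 10.35 and 9.16 on the methanol arrays and 11.49, 9.60, 9.59 and 7.55 on the control arrays. Control arrays 1 and 4 were 3.94 apart, and the methanol arrays spread over 2.12 inside the control range. The change of 0.79 did not pass (SE 0.60, 95% interval -0.49 to 2.08, limma adjusted p = 0.495). Scn2b had 9.66, 9.96, 9.93 and 9.73 on the methanol arrays and 10.28, 9.94, 9.79 and 9.74 on the control arrays, with a change of -0.11 (SE 0.11, 95% interval -0.36 to 0.13, adjusted p = 0.631). The groups overlapped for both genes. The 250 bases before the start of Scn4b are shown for the probe with the widest spread, with ATTGG, the other strand of CCAAT, in capitals from -67.
Scn4b upstream region, chr9:45138374-45138623, plus strand, RefSeq on GRCm38.p6: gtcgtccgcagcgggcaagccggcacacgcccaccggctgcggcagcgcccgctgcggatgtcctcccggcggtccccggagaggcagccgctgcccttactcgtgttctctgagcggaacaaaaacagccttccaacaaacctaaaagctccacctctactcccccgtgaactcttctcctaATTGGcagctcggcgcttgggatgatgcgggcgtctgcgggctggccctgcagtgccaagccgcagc

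Motif letters were searched on both strands of 250 bases before the start in 31 RefSeq promoters of 22 channel genes and in 32851 promoters in all. CCAAT was found in 9 of the 31 (29%, against 33.8% of all), the GC box GGGCGG in 12 (38.7%, against 32.7%), TATAAA in 1, at Cacna1d (3.23%, against 12.4%), and TGACGTCA, the cAMP response element, in 0 (1.55% of all). A match describes letters and is no measured binding.

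Genes of the striatum also differed widely between arrays of a group. Of 8 striatal genes on the array, in a list chosen after the spread of Scn4b had been seen, 7 were tested. Of these 0 passed limma's test (5.6% of all compared probes did), with 0 at an unadjusted p under 0.05 (20.7% of all). Drd1 and Drd2, the dopamine receptors of the direct and indirect pathways, Ppp1r1b, Rgs9, Pde10a, Syndig1l and Tac1 had SDs of 0.76 to 1.63 within the groups. Their mean level was 8.62, 9.59, 7.88 and 7.13 on the methanol arrays and 9.55, 7.87, 8.40 and 6.52 on the control arrays. The highest and the lowest array of each group were those of Scn4b, methanol arrays 2 and 4 and control arrays 1 and 4. Of the cerebellar markers Pcp2, Calb1, Gabra6 and Cbln3 were detected on 0 arrays, and Cbln1, the only one tested, had a change of -0.57 (SE 0.31, limma adjusted p = 0.312). Of 9 hindbrain genes on the array 0 were tested, since none was detected on 4 arrays. Cortical and hippocampal genes had a mean level of 8.86 to 9.13 on the methanol and 8.72 to 8.95 on the control arrays. Of 7 tested, Cux2 and Nrgn were higher after methanol (0.39 and 0.56, where 3.12% of all compared probes were higher). At an unadjusted p under 0.05 there were 3 of the 7, against 20.7% of all. The 7 thalamic genes had 7.22 to 7.51 and 7.30 to 7.60, with 0 past limma's test (5.6% of all compared probes were). Calb2 (-1.17) and Rora (0.36) moved in opposite directions at an unadjusted p under 0.05 (20.7% of all). The part of tissue makeup in the channel values was not tested.

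**Figure D4:**
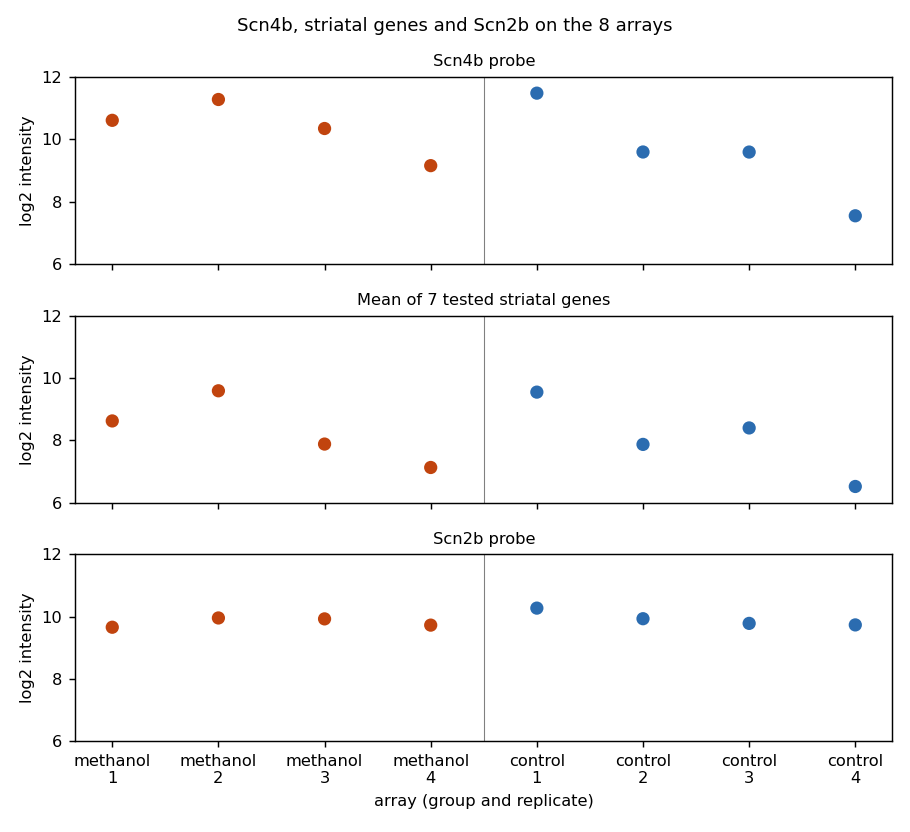
Log2 intensity of Scn4b (top), the mean of 7 striatal genes (middle) and Scn2b (bottom) on the 8 arrays. Scn4b and the striatal mean peak on methanol array 2 and control array 1 and are lowest on array 4 of each group, while Scn2b lies between 9.66 and 10.28.

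Pvalb, the calcium buffer of fast-spiking interneurons, moved in the same direction as Scn1a. It had 12.01, 11.53, 11.86 and 11.55 on the methanol arrays and 11.48, 11.39, 10.71 and 10.84 on the control arrays, without overlap, and rose by 0.64 (SE 0.16, limma adjusted p = 0.0307). That call was lost without methanol array 1 or 3 or control array 3 or 4 (changes of 0.51 to 0.60), with median scaling, without a variance trend and with robust moderation. It was 1 of 4 tested markers of inhibitory neurons, and 3.12% of all compared probes were higher. The other three, from a list of 5, did not pass, and the mean level of the 4 was 11.66 to 12.003 on the methanol and 11.47 to 11.89 on the control arrays. Of the excitatory markers 3 were tested and 0 passed, also at an unadjusted p under 0.05 (5.6% and 20.7% of all compared probes did). Their mean level was 10.502 to 10.94 on the methanol and 10.53 to 10.95 on the control arrays. Among 8 tested markers of oligodendrocytes, the cells that myelinate axons, Cldn11 and Mal were higher and Opalin lower (5.6% of all compared probes were called either way), 4 of the 8 had an unadjusted p under 0.05 (20.7% of all), and their mean level was 9.85 to 10.59 on the methanol and 9.61 to 10.24 on the control arrays. Of 6 microglia markers P2ry12 was lower (2.49% of all compared probes were) and 2 had an unadjusted p under 0.05 (20.7% of all). Of 3 choroid plexus markers Kl was lower (-1.17, where 2.49% of all compared probes were lower). Ttr (-2.03, limma adjusted p = 0.236) and Clic6 (-1.03, limma adjusted p = 0.304) did not pass. Their mean level was 6.54 to 7.31 on the methanol arrays and 8.24, 8.55, 10.53 and 6.53 on the control arrays, where array 3 stood highest, with Ttr at 14.40 and Kl at 8.10. The part of these cells in the change of Scn1a was not tested.

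No calcium channel pore passed the test, and the nearest was Cacna1g, the T-type pore of thalamic relay neurons and their burst firing. On its brighter probe, ILMN_1241838, the methanol arrays had 8.20, 8.004, 8.36 and 8.14 and the control arrays 7.90, 7.78, 7.68 and 7.92. The groups did not overlap, with a gap of 0.08. The change was 0.36 (SE 0.10, 95% interval 0.14 to 0.57, exact permutation p = 0.0286), and limma's adjusted p of 0.0545 missed the threshold. The probe ILMN_1256998 had 6.98, 6.84, 6.42 and 6.37 on the methanol and 6.29, 6.33, 6.26 and 6.38 on the control arrays, where methanol arrays 1 and 2 stood above all others and methanol array 4 lay among the controls. Its change was 0.34 (SE 0.15, 95% interval 0.02 to 0.65, limma adjusted p = 0.209, exact permutation p = 0.0571). The changes of these probes differed by 0.02 (exact permutation p = 0.914). In 6 of 17 alternatives the brighter probe passed the test. Among these were detection on all 8 arrays, robust moderation, no background correction and the deposited normalized table (limma adjusted p from 0.0393 to 0.0493). It also passed without methanol array 2 (change 0.41) or control array 1 (change 0.38). In the rest it did not pass, as with median scaling (limma adjusted p = 0.333) or without methanol array 1 (0.118) or 3 (0.143). In the un-normalized intensities its groups overlapped, with 368.6 on methanol array 4 and 389.3 on control array 4. Cacna1h, another T-type pore, had 9.16 to 9.70 on the methanol and 9.17 to 9.51 on the control arrays, a change of -0.05 (95% interval -0.33 to 0.22, adjusted p = 0.867).

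Cacna1a and Cacna1b, the P/Q-type and N-type pores that trigger transmitter release, were dim on this array. Cacna1a had 6.09, 5.51, 5.75 and 5.63 on the methanol and 5.64, 5.44, 5.62 and 5.63 on the control arrays, with a change of 0.17 (95% interval -0.18 to 0.51, limma adjusted p = 0.613). The Cacna1b probes pointed in different directions. ILMN_2770304 was detected on 3 methanol arrays and 1 control array, just the 4 arrays needed to be compared. Its change was 0.33 (SE 0.17, 95% interval -0.05 to 0.70, adjusted p = 0.309). ILMN_3107273 was detected on 2 methanol and 4 control arrays and had a change of -0.13 (SE 0.20, 95% interval -0.55 to 0.29, adjusted p = 0.772). Each probe was thus detected on more arrays of the group where it was higher, and both lay near the lowest detected signal. Their directions are therefore not independent of the detection filter. The difference between them was 0.45 and did not pass (exact permutation p = 0.114, adjusted over 6 pairs p = 0.229). Cacna1d, the L-type pore that opens at low voltage and paces firing, had 6.31, 5.87, 6.30 and 6.37 on the methanol and 6.09, 6.36, 6.04 and 6.12 on the control arrays, a change of 0.06 (95% interval -0.25 to 0.37, adjusted p = 0.864).

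The alpha2delta and beta subunits, which bring calcium channel pores to the membrane, showed no change past the test. Cacna2d1, the binding site of gabapentin, had the smallest SD within groups among the 25 compared channel probes, with levels of 9.86 to 10.07 on the methanol and 9.79 to 9.98 on the control arrays and a change of 0.10 (95% interval -0.07 to 0.27, limma adjusted p = 0.505). Cacna2d3 had 9.46, 9.29, 9.36 and 8.94 on the methanol and 9.79, 9.20, 9.16 and 8.67 on the control arrays, again with array 4 lowest in each group, and a change of 0.05 (95% interval -0.33 to 0.44, adjusted p = 0.909). Cacnb4, whose loss causes the lethargic mouse, had a bright probe, ILMN_3123491, with 10.26 to 10.72 on the methanol and 9.98 to 10.60 on the control arrays (change 0.17, 95% interval -0.13 to 0.47, adjusted p = 0.539). Its dim probe ILMN_3047749, detected on 7 arrays, went the other way (change -0.43, SE 0.21, 95% interval -0.89 to 0.02, adjusted p = 0.266). The changes of the Cacnb4 probes differed by 0.60 in size, with an exact permutation p of 0.0571 and 0.229 after adjustment. Cacnb2 (change -0.06, adjusted p = 0.811) and Cacnb1, detected on 5 arrays (change 0.16, adjusted p = 0.729), did not pass either.

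Of the Cacng genes, Cacng3, an AMPA receptor partner of cortex, was the one with a probe whose groups did not overlap. ILMN_1248692 had 6.93, 6.94, 6.87 and 6.90 on the methanol and 7.36, 7.10, 6.95 and 7.38 on the control arrays. The methanol arrays lay close together below all controls, the nearest control array only 0.01 above. Its change of -0.29 did not pass (SE 0.12, 95% interval -0.54 to -0.04, limma adjusted p = 0.177, exact permutation p = 0.0286). ILMN_2843891 of the same gene had 7.99 to 8.46 and 7.75 to 8.48, a change of 0.05 (95% interval -0.26 to 0.35, adjusted p = 0.892), and the changes of these probes did not differ past the test (exact permutation p = 0.0857, adjusted p = 0.229). Cacng4, next to Cacng1 and Cacng5 on chromosome 11, had means of 6.21 in both groups with SDs of 0.55 and 0.52 (change 0.00, 95% interval -0.57 to 0.58, adjusted p = 0.996). Cacng5 had changes of -0.35 and -0.13 on its compared probes, with another probe detected on 3 arrays (adjusted p = 0.347 and 0.738). Cacng7, an AMPA receptor partner on chromosome 7 beside Cacng8 and Cacng6, had means of 6.58 in both groups (change 0.00, 95% interval -0.30 to 0.30, adjusted p = 0.997).

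Proteins that bind or regulate these channels were followed through a list of 40 genes, of which 34 were on the array and 23 were tested. After methanol 3 were higher, 1 was lower and 19 did not pass, and the median change over the list was 0.03 (over all compared probes 3.12% were higher and 2.49% lower, with a median of 0.00). At an unadjusted p under 0.05 there were 10 of the 23, against 20.7% of all. The list was chosen with earlier results of these data known, so these counts only describe it, and their excess was not tested. Rims1 and Rims2, scaffolds of the presynaptic active zone that tether calcium channels near vesicles, were higher. Rims1 had 7.99, 7.91, 8.10 and 7.77 on the methanol and 7.38, 7.40, 7.35 and 7.18 on the control arrays, without overlap, and rose by 0.62 (SE 0.10, limma adjusted p = 0.00228). Rims2 had means of 9.42 ± 0.06 and 9.03 ± 0.09 (SD, n = 4 arrays each), also without overlap, and rose by 0.39 (SE 0.08, limma adjusted p = 0.0105). Stac2, an adaptor that binds L-type channels and slows their inactivation, had 9.97, 9.71, 9.54 and 9.72 on the methanol and 9.44, 9.03, 8.28 and 8.72 on the control arrays and rose by 0.87 (SE 0.18, limma adjusted p = 0.0125). All methanol arrays stood above all control arrays, and control array 3 was the lowest.

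Calm2, a gene for calmodulin, the calcium sensor bound to both channel families, was the lower one. Its level was 11.23, 11.29, 11.18 and 11.15 on the methanol and 11.75, 11.66, 11.54 and 11.63 on the control arrays, the groups did not overlap, and it fell by 0.43 (SE 0.07, limma adjusted p = 0.00227). Calm3, which encodes the same protein, had a change of -0.15 and did not pass (adjusted p = 0.372). With arrays only scaled to the same median the calls of Rims2 and Calm2 were lost (adjusted p = 0.219 and 0.132), and that of Stac2 was lost with robust moderation (adjusted p = 0.0895). Among partners of the sodium channels 0 of 2 intracellular ones and 0 of 6 genes of the axon initial segment and node passed limma's test, with 2 and 2 at an unadjusted p under 0.05, where 20.7% of all compared probes were. Those 4 were Fgf12 (0.25, adjusted p = 0.0769) and Fgf13 (-0.21, adjusted p = 0.199), which bind the pore's tail, Sptbn4 (0.25, adjusted p = 0.207), a spectrin of the axon initial segment, and Nrcam (-0.22, adjusted p = 0.171), an adhesion protein of the same site. Ank3, which anchors the pore there, had a change of 0.14 (adjusted p = 0.525).

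**Figure D5:**
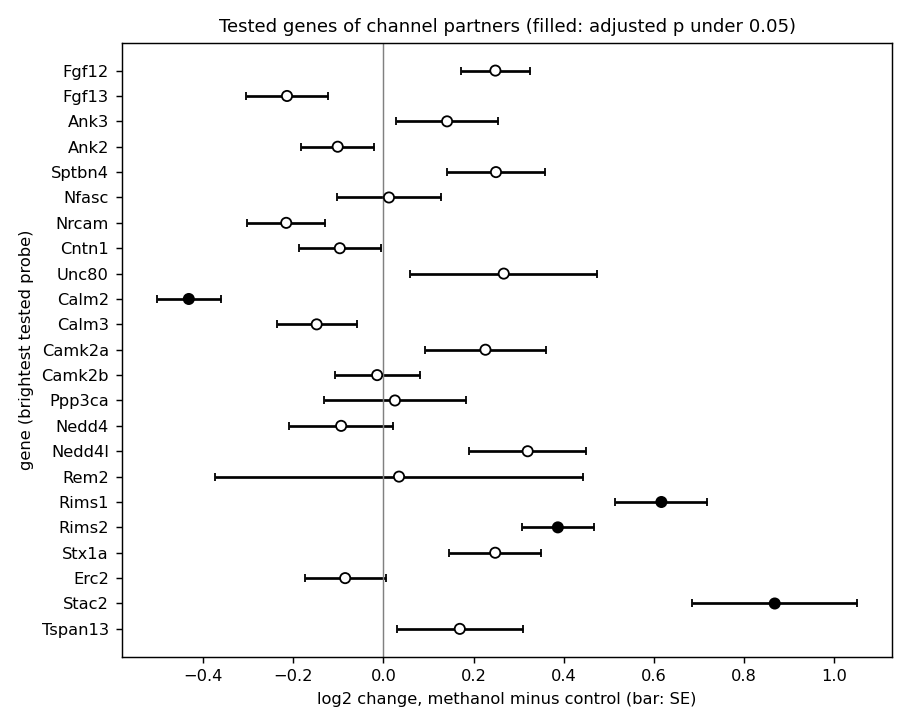
Log2 change (methanol minus control) with its SE for the tested genes of the partner list, 1 probe a gene. Filled points passed the test, with Stac2, Rims1 and Rims2 above 0 and Calm2 below.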

How the data were processed

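RNA of mouse brain was measured on 8 arrays, 4 methanol and 4 control, grouped by GEO's labels. GenomeStudio, cubic spline normalization and SAM are named in the methods. The authors deposited un-normalized intensity values, used here, and a table whose intensity columns held identical sorted values, so it had been quantile-like normalized, and which gave every probe a detection p-value on every array. The deposited p-value columns set the background (normexp, offset 16), and quantile normalization followed (neqc, limma 3.58.1 in R 4.3.3). Median un-normalized intensity was 175.6 to 195.8 and 11291 to 12366 probes were detected per array. The number of arrays limits the precision. Correlations were 0.981 to 0.989 within and 0.973 to 0.984 between groups.

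Probes detected (p under 0.05) on at least 4 of 8 arrays were compared with lmFit and eBayes with a variance trend, two-sided, with Benjamini-Hochberg adjustment over 11938 probes and a threshold of 0.05, and single probes also with an exact permutation test over arrays. The procedure was tested on simulated data drawn independently for each probe and array, so variation that probes share between arrays was not covered. Where a listed gene had several probes, the brightest tested one was used. Names came from the platform annotation (23978 probes with 1 symbol, 1719 with none, 0 with several) and gene positions and promoters from RefSeq, GRCm38.p6, where Scn3b had no promoter entry.

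The members and lists were chosen with earlier results of these data known. Every member gene was named, with values on every array for compared probes past the test or without overlap. Other set brain representatives had these values for some compared probes and only a range or the change for others. Lists covered brain cell types and channel partners. Of their tested genes, 0 of 8 astrocyte, 0 of 2 precursor, 0 of 3 endothelial and 0 of 1 muscle genes passed limma's test (3, 0, 0 and 0 at an unadjusted p under 0.05). Lower were 1 of 6 microglia and 1 of 3 choroid plexus genes (2 and 2 at an unadjusted p under 0.05). Over all compared probes 5.6% were called either way, 2.49% were lower and 20.7% had an unadjusted p under 0.05. Region lists for striatum, hindbrain, cortex and thalamus were added after seeing the values. Alternatives changed the background correction, table, scaling, offset, filter, moderation and block, or left out an array.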

Additional observations from a re-analysis of the deposited data

Results flagged for a closer look

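In 2 of the 50 groups of 4 arrays screened (25 channel probes, methanol and control), 1 array stood farther from the rest than the 95% critical value of Dixon's test, which divides its gap to the nearest array by the group's range, where chance flags about 1 group in 20. For Cacna1a the ratio was 0.929 in the control group, where array 2 had 5.44 and the others 5.62 to 5.64. For Cacna1d it was 0.859 in the methanol group, where array 2 had 5.87 and the others 6.30 to 6.37.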

How the results depend on the processing

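Over 17 alternatives and 30 probes, 505 log2 changes were recomputed, of which 455 kept direction and call, 25 lost the call, 6 gained one and 19 changed sign, none of these past the test. The call of Scn1a held in 17 of 17 alternatives (0.67 to 1.00, adjusted p 2.16e-05 to 0.0357) and that of Rims1 in 17 of 17. The Scn3b calls held in 9 of 17 and 9 of 16, and on the dim probe also ended with no filter (adjusted p = 0.0750). The count of higher channel probes was 2, with Cacna1g added, without background correction, in the deposited normalized table, with detection on all 8 arrays and with robust moderation, and 1 to 2 on leaving out single arrays. The count of lower ones was 1 with detection on all 8 arrays, no filter, no variance trend or robust moderation, and 0 to 2 on leaving out arrays. Over all probes the higher and lower counts were 161 and 168 with median scaling, and 204 to 466 and 152 to 434 on leaving out arrays. Correlations of same-numbered arrays were 0.18, -0.11, -0.01 and 0.25, which did not settle whether replicate numbers pair the arrays. With them as a replicate block the counts over all probes were 477 and 483, and the channel calls stayed at 1 higher and 2 lower. The SE fell from 0.16 to 0.10 for Scn1a and from 0.60 to 0.26 for Scn4b with this block. For other probes it rose, as from 0.159 to 0.167 for Cacna1a. Signs turned on leaving out arrays for Cacna2d3 (-0.13 to 0.25), Cacng7 (-0.12 to 0.064), ILMN_3107273 of Cacna1b (-0.30 to 0.0040), Cacng4 (-0.22 to 0.26, and -0.035 with median scaling), Cacna1h (-0.19 to 0.048), ILMN_2843891 of Cacng3 (-0.10 to 0.15), Cacnb2 (-0.13 to 0.025), Scn2b (-0.18 to 0.0015) and ILMN_2812240 of Cacng5 (-0.27 to 0.036). The call of Pvalb was lost in 7 alternatives. The cause of these moves was not tested. The size of the change of the dim Scn3b probe, near the lowest detected signal, depended on the background correction (-0.64 with it and -0.19 without).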
